A study of Rattus norvegicus with 52 samples.

Results

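The E2F transcription factors and the retinoblastoma (pocket) proteins were followed through sorted mammary cells of rats with and without Cdkn1b, the gene of the cell cycle inhibitor p27. The 10 genes E2f1, E2f2, E2f3, E2f4, E2f5, E2f7, E2f8, Rb1, Rbl1 and Rbl2 were chosen by symbol and not by any measured value. Of these 10, 7 had a row among the 17356 genes counted, and E2f2, E2f5 and E2f8 were not analysed here. The members were read in all 48 RNA-seq libraries as CPM, a gene's reads scaled to a common total of reads counted on all genes of the library.

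E2F factors bind a short GC-rich element in front of genes for DNA replication and cell division. E2f1 and E2f3 are activators, E2f4 is the E2F that binds pocket proteins in resting cells, and E2f7 is an atypical repressor that binds DNA without a DP partner. The pocket proteins pRb (Rb1), p107 (Rbl1) and p130 (Rbl2) hold E2Fs inactive until cyclin D with Cdk4 or Cdk6, and then cyclin E with Cdk2, phosphorylate them. p27 inhibits these kinases. In resting cells p107 or p130 forms the DREAM complex with E2f4, a DP partner and the MuvB core, which keeps cell cycle genes silent. In the mammary gland, hormones drive cycles of division in luminal and basal cells that pass through this switch.

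The rats were ACI females whose Cdkn1b alleles, em1 and em4, were made in Sprague-Dawley rats and crossed onto ACI, and Cdkn1b+/+ and Cdkn1b-/- rats came from heterozygous parents. The paper sorted cells from rats of an early (1) and a late (6) backcross generation, so Sprague-Dawley background may differ between libraries. The generation of each library is not given in its title. Knockout animals had cataracts from birth. At 9 weeks, each genotype had 2 libraries of basal cells (Cd24+ Cd29high), of mature luminal cells (Cd24+ Cd29low, without Cd49b or PNA), of PNA+ and of Cd49b+ luminal cells. PNA+ and Cd49b+ cells are joined below as luminal progenitors, LP for short, which is how the authors use these gates. At 4 weeks there were 3 basal and 3 luminal libraries of Cdkn1b+/+ and 2 basal and 3 luminal libraries of Cdkn1b-/-, and at 6 weeks 3 basal and 2 luminal libraries of Cdkn1b+/+ and 2 of each population of Cdkn1b-/-, luminal here meaning all Cd24+ Cd29low cells. The paper gives these ages as ranges, and numbers in the titles that may be ages differ within both groups. At 6 weeks the title number of Cdkn1b-/- animal 1 is below those of all other rats, so age and genotype are partly confounded there. A further experiment held basal and luminal cells of ACI rats with an empty (control) or estradiol-filled (E2) implant, 2 libraries per population and treatment, and of Brown Norway (BN) rats, 1 library per population and treatment with a pair of animal numbers in its title. No label gives a Cdkn1b allele in the E2 experiment. At 9 weeks the labels number the libraries 1 and 2 and name no animal, so p-values measure the spread between these libraries, which may be technical.

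Promoters of 5 members were in the RefSeq table of the rat assembly GRCr8, as windows of 300 bases around the start of transcription, and E2f1 and E2f4 were not in it. The windows were searched on both strands for the E2F element in the forms TTTCCCGC, TTTCGCGC, TTTGCCGC and TTTGGCGC. One of these forms stood in 716 of 33469 promoters (2.14%), TTTCCCGC in 0.974% and TTTCGCGC in 0.326%. E2f3, Rb1 and Rbl1 each had 1 match, and the windows of E2f7 and Rbl2 had none of these letters. The 60 bases around each match are shown because the family's products bind this element and so may meet it at their own genes. They are written on the gene's strand, 5′ to 3′, with the match in capitals.
E2f3, chr17:34810312-34810371, plus strand, match on the opposite strand: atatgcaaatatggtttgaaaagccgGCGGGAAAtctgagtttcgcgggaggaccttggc
Rb1, chr15:54911838-54911897, minus strand, match on the gene's strand: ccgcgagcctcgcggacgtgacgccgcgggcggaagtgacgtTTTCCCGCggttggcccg
Rbl1, chr3:166289361-166289420, minus strand, match on the gene's strand: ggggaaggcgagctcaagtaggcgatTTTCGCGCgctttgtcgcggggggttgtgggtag
The matches are letters in a window. Binding there was not measured.

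Reads counted on genes per library ranged from 21545344 to 33859550 at 9 weeks, from 14674040 to 23045345 at 4 weeks, from 7985619 to 16390460 at 6 weeks and from 13659389 to 25280421 in the E2 experiment, so low genes are measured least well at 6 weeks. Cdkn1b itself had 1.59 to 4.24 CPM in Cdkn1b-/- and 6.00 to 18.0 CPM in Cdkn1b+/+ libraries of 9 weeks, without overlap, while at 4 and 6 weeks the difference between genotypes had an adjusted p of at least 0.785, although the genotypes overlapped only in basal cells of 6 weeks. Reads on Cdkn1b outside the small deletions still count, so a residual level is no check of the labels. Basal markers such as Krt5 and Acta2 summed to 19100 to 30080 CPM in basal and 239 to 2979 CPM in luminal libraries of 9 weeks. In Cdkn1b+/+ rats, however, Pgr, Prlr and Foxa1, which mark hormone-sensing mature cells, were higher in LP than in the mature luminal gate. The progenitor gene Elf5 was lower in LP (log2 fold change -0.998, SE 0.28, adjusted p = 0.0392, edgeR). The names LP and mature luminal below therefore stand for sorting gates only, and these markers do not bear out progenitor against mature cells. The progenitor gene Kit had alike means (181.7 CPM in LP and 181.9 CPM in mature luminal libraries). Progenitor marker sums overlapped, at 132.5 to 355 CPM in LP and 204 to 351 CPM in mature luminal libraries. Endothelial markers summed to 353 to 687 CPM in LP and 80.9 to 85.4 CPM in mature luminal libraries of this genotype. Some libraries stood apart by few reads or genes. The luminal Cdkn1b-/- library 2 of 6 weeks had 9286371 reads, 9241 genes detected and high sums of immune (1986 CPM), endothelial (1276 CPM) and fibroblast (3076 CPM) markers. The basal Cdkn1b+/+ library 3 of 6 weeks had 7985619 reads and 10444 genes, and the basal ACI E2 library 1 had 7716 genes with a basal marker sum of 1999 CPM against 17360 CPM in its companion. The luminal ACI E2 library 1 had 13659389 reads and 9184 genes, and 3 more libraries of the E2 experiment had 10011 to 10391 genes. In bulk libraries a change in the number of cells of a type and a change in RNA per cell cannot be told apart.

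Rb1 and E2f4 had reads in every library, from 10.6 to 341 CPM for Rb1 and from 29.8 to 264 CPM for E2f4, and so did Rbl2 with 3.38 to 72.3 CPM. E2f1 (0 to 31.8 CPM), E2f3 (0 to 34.1 CPM) and Rbl1 (0 to 22.1 CPM) were listed at 0 in 3, 3 and 1 libraries. E2f7 had reads in 41 of 48 libraries and never passed 9.30 CPM. Small differences in E2f7 were not detectable at this depth. CPM are scaled to each library's total, whereas fold changes rest on edgeR's TMM scaling, so a ratio of CPM and a fold change can differ in size or, near 1, in direction (E2f4 in basal cells of 9 weeks had 51.6 against 57.2 CPM between genotypes and a log2 fold change of 0.10).

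In no comparison of genotypes was a member called. A call means a Benjamini-Hochberg adjusted p, taken over all genes of the fit, under 0.05 in the quasi-likelihood test of edgeR. At 9 weeks, 0 of 7 members were called in LP, where 3.4% of 12809 genes were called, 0 in mature luminal cells (0.133% of genes) and 0 in basal cells (0.0546% of genes). DESeq2 also called 0 in each, and at an unadjusted p under 0.05 edgeR gave 0, 0 and 1 member, against 18.3%, 7.15% and 9.09% of all genes. At 4 weeks edgeR called 0 members in basal and 0 in luminal cells (0% of 12082 genes in each), with 0 and 0 at an unadjusted p under 0.05 (2.57% and 3.6% of all genes), and DESeq2 called 0 and 0. At 6 weeks the counts were 0 in basal and 0 in luminal cells (0% of 11921 genes in each), with 0 and 1 at an unadjusted p under 0.05 (8.99% and 16.4% of all genes), and DESeq2 called 0 and 1 (its counts over all genes are given at the end). Whether the genotype effect differed between populations or ages was tested directly. The effect in LP minus that in mature luminal cells and the effect in LP minus that in basal cells each gave 0 calls among members (0% of genes in each), the effect at 6 weeks minus that at 4 weeks gave 0 in basal cells (0.0398% of genes) and 0 in luminal cells (1.21% of genes), and of these 4 differences only the last had a member at an unadjusted p under 0.05 (1, E2f4, which DESeq2 called). In that last difference 15.5% of all genes had such a p, and the count of DESeq2 over all genes is not given here. DESeq2 called 0 in the other 3.

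**Figure D1:**
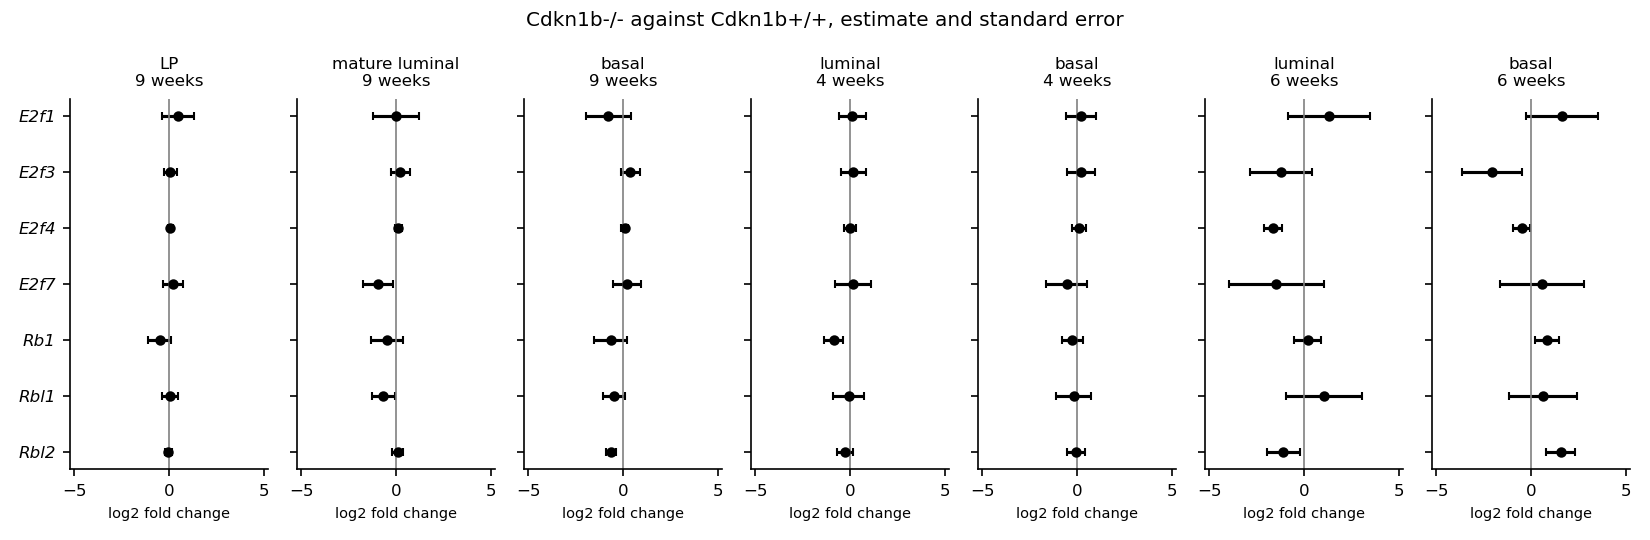
Log2 fold change of each member between Cdkn1b-/- and Cdkn1b+/+ cells (edgeR estimate, bars ± 1 SE) in the 7 comparisons of genotypes at 9, 4 and 6 weeks. No estimate has an adjusted p under 0.05, and the widest bar is that of E2f7 in luminal cells of 6 weeks (SE 2.51).

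At 9 weeks, E2f1 differed by up to 20-fold between libraries of 1 population and genotype. The Cdkn1b+/+ libraries with the number 1 had 31.8 (basal), 15.97 (mature luminal), 16.1 (PNA+) and 12.9 CPM (Cd49b+), and those with the number 2 had 1.59, 1.26, 2.13 and 2.03 CPM in the same order. Number 1 was thus 20-fold higher in basal, 12.6-fold in mature luminal, 7.54-fold in PNA+ and 6.35-fold in Cd49b+ cells. The 8 Cdkn1b-/- libraries lay between these levels, at 5.84 to 10.8 CPM, and their ratios of number 1 to number 2 were 0.648 to 1.14. Against number 1 alone Cdkn1b-/- was lower in all 4 populations, and against number 2 alone it was higher in all 4. In LP the means were 8.93 ± 1.54 CPM (SD, n = 4) in Cdkn1b-/- and 8.29 ± 7.29 CPM (SD, n = 4) in Cdkn1b+/+, a difference smaller than the spread between libraries. The 4 LP libraries of a genotype carry 2 numbers and are not 4 independent samples.

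At 4 weeks E2f1 ranged from 2.43 to 17.2 CPM over 11 libraries with overlap between genotypes. At 6 weeks, basal Cdkn1b-/- libraries had 14.2 and 5.80 CPM, above the 4.01, 1.95 and 3.13 CPM of Cdkn1b+/+, and luminal ones had 25.05 and 0 CPM against 0.404 and 8.14 CPM. The basal groups did not overlap, as for 41.7% of all genes tested, and the test was not passed. The value of 0 belongs to the luminal library that stood apart.

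A change of at least 4-fold the same way in all 4 Cdkn1b+/+ populations was seen for 98 of 12809 genes (0.765%), of which E2f1 was 1 and the only member. In Cdkn1b-/- rats, 58 genes (0.453%) met that rule and 0 members. Mybl2, the B-Myb factor that joins MuvB in dividing cells, and the replication genes Mcm3, Mcm5 and Mcm6 were among the genes that met it in Cdkn1b+/+ rats, with Mcm5 10.9- to 19.2-fold higher in number 1. These genes and the members in the next sentences were picked out after their values were seen.

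**Figure D2:**
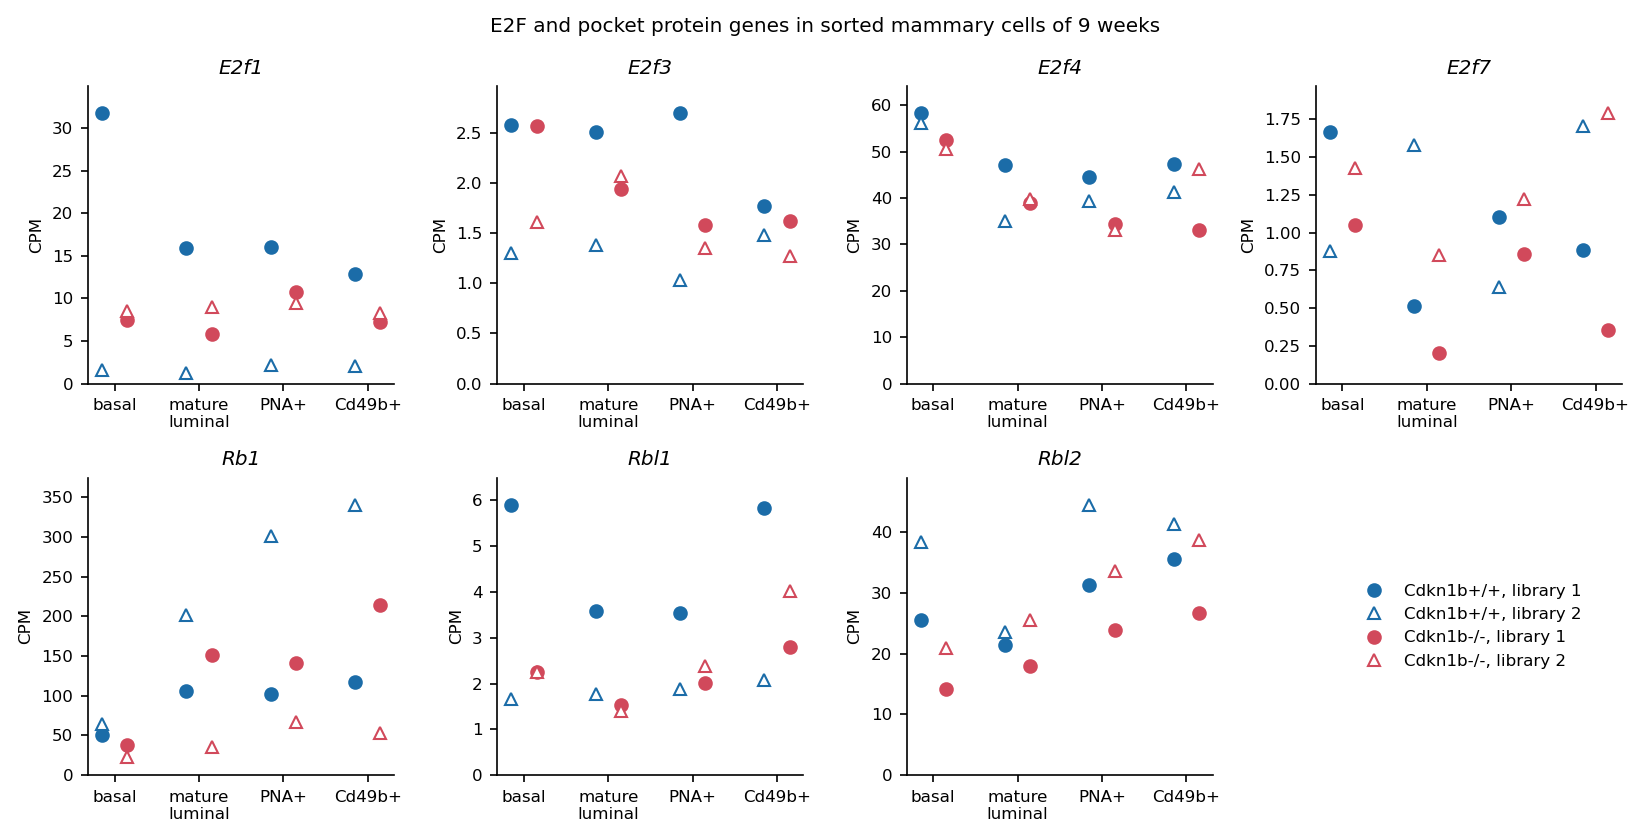
CPM of the 7 members in the 16 libraries of 9 weeks, 1 panel per member, by population, with Cdkn1b+/+ in blue, Cdkn1b-/- in red, filled circles for library 1 and open triangles for library 2. E2f1 splits by number in blue and not in red, and Rb1 splits in both colours in opposite order.

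Of 7 members, 4 (E2f1, E2f3, E2f4 and Rbl1) were higher in number 1 of all 4 Cdkn1b+/+ populations, as were 29.2% of all genes. In number 2 of all 4, 2 members (Rb1 and Rbl2) were higher, as were 22.6% of all genes. In Cdkn1b-/- rats 1 member (Rb1) was higher in number 1 and 2 (E2f7 and Rbl2) in number 2, against 11.9% and 28.1% of all genes. E2f3 had ratios of 1.2 to 2.61 in Cdkn1b+/+ rats. Rbl1 was higher in number 1 of all 4 Cdkn1b+/+ populations, with 5.91 against 1.67 CPM in basal, 3.57 against 1.78 in mature luminal, 3.53 against 1.89 in PNA+ and 5.84 against 2.07 in Cd49b+ cells. Rb1 was lower in number 1 of the same populations, with 50.2 against 64.0 CPM in basal, 106 against 201 in mature luminal, 102 against 300.5 in PNA+ and 117 against 341 in Cd49b+ cells. In Cdkn1b-/- rats Rb1 was instead higher in number 1, with 38.3 against 22.9 CPM in basal, 151 against 35.4 in mature luminal, 141 against 67.2 in PNA+ and 214 against 52.7 in Cd49b+ cells. Rbl2 was lower in number 1 of all 8 pairs, at 0.664 to 0.908 of number 2 in Cdkn1b+/+ and 0.677 to 0.713 in Cdkn1b-/- rats. E2f4 moved little, its ratios lying between 0.718 and 1.35.

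In Cdkn1b+/+ rats most G1 to S and DREAM genes split as E2f1 did. In Cdkn1b-/- rats most were higher in number 2, while E2f1 had ratios of 0.648 to 1.14. Of 25 genes of the G1 to S transition with E2F sites, 24 were higher in number 1 of all 4 Cdkn1b+/+ populations, as were 12 of 13 DREAM genes of G2 and M phase, 6 of 9 kinases and cyclins that act on pocket proteins, 3 of 6 DP and MuvB genes and 3 of 6 CDK inhibitors, against 29.2% of all genes. The 25 genes summed to 991 to 1493 CPM in the 4 number 1 libraries and to 408 to 574 CPM in the 4 number 2 libraries. In Cdkn1b-/- rats their sum was 403 to 786 CPM, 17 of 25 were higher in number 2 of all 4 populations and 1 in number 1 (28.1% and 11.9% of all genes), and so were 8 of 13 DREAM genes and 8 of 9 kinases and cyclins in number 2. The summed CPM of the progenitor markers Kit, Elf5 and Aldh1a3 split with Rb1, although Elf5 alone was higher in number 1 of all luminal pairs of both genotypes. They summed to 132 to 204 CPM in luminal number 1 and 351 to 355 CPM in luminal number 2 libraries of Cdkn1b+/+ rats, and to 328 to 394 CPM in number 1 and 103 to 133 CPM in number 2 of Cdkn1b-/- rats. Whether these numbers stand for animals, cycle days or runs is not given in the labels, and their part in the results was not tested.

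**Figure D3:**
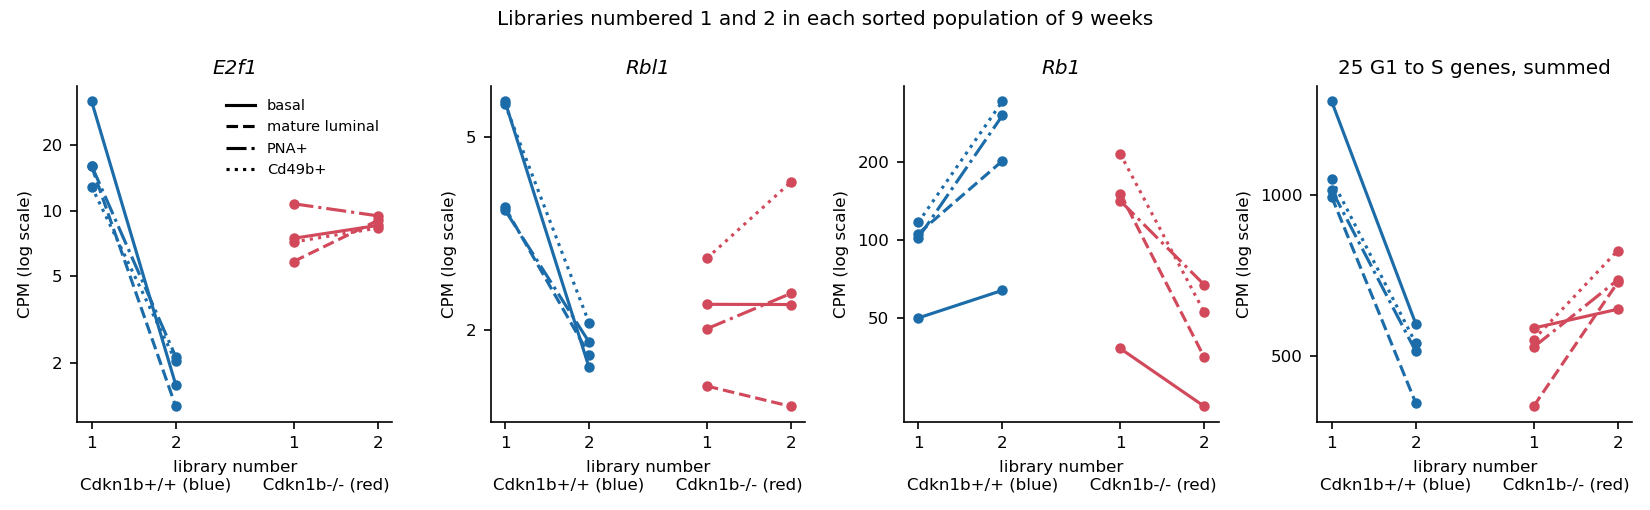
CPM of E2f1, Rbl1 and Rb1 and the summed CPM of 25 G1 to S genes by library number at 9 weeks (log axis), with 1 line per population and genotype. Lines of Cdkn1b+/+ fall from 1 to 2 for E2f1, Rbl1 and the G1 to S sum and climb for Rb1, while lines of Cdkn1b-/- have ratios of 0.648 to 1.14 for E2f1 and fall for Rb1.

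E2f3, the other activator measured, had 1.03 to 2.70 CPM at 9 weeks and 0.761 to 6.18 CPM at 4 weeks. At 6 weeks, basal Cdkn1b+/+ libraries had 3.53, 6.65 and 34.1 CPM, against 1.99, 1.58 and 2.90 CPM at 4 weeks. The groups did not overlap, as for 37.2% of all genes, and the log2 fold change of 2.99 (SE 1.07, adjusted p = 0.078, edgeR) did not pass the test. The value of 34.1 belongs to the shallow basal library 3, without which it was 1.28 (adjusted p = 0.427). In the E2 experiment E2f3 was listed at 0 in 3 basal ACI libraries and reached 12.6 CPM in the luminal ACI E2 library 1, against 1.92 CPM in its companion. That library and the basal ACI E2 library 1, one of those at 0, are among the libraries that stood apart.

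E2f4 was higher in basal than in LP cells of Cdkn1b+/+ rats at 9 weeks. Basal libraries had 58.3 and 56.2 CPM, and LP libraries had 47.4 and 41.2 (Cd49b+) and 44.5 and 39.4 CPM (PNA+). The groups did not overlap, as for 50.6% of all genes, and the log2 fold change was 0.47 (SE 0.15, adjusted p = 0.0346, edgeR). In this comparison 1 of 7 members was called, where 30.9% of genes were. Rb1 had an unadjusted p under 0.05 as well, where 42.6% of all genes did. The call did not survive leaving out either basal library, either Cd49b+ library or PNA+ library 2 (adjusted p up to 0.132), while with the number as a replicate block within genotype the adjusted p was 0.00537. In mature luminal cells E2f4 had 47.2 and 34.9 CPM, below both basal libraries (no overlap in 55.6% of all genes), and the difference did not pass the test. All 5 endothelial markers were lower in basal than in LP cells (sums of 68.0 and 124 against 353 to 687 CPM), and their part in the E2f4 difference was not tested. In Cdkn1b-/- rats E2f4 had 52.5 and 50.6 CPM in basal, 39.0 and 39.7 in mature luminal, 34.4 and 33.1 in PNA+ and 33.1 and 46.2 CPM in Cd49b+ cells, so basal libraries were again the highest. At the younger ages the Cdkn1b+/+ means ran the other way. Basal against luminal cells had 76.4 against 101 CPM at 4 weeks and 134 against 218 CPM at 6 weeks, without a call.

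E2f4 means were higher at 6 than at 4 weeks in Cdkn1b+/+ cells, without a call by edgeR. Luminal Cdkn1b+/+ libraries had 121, 81.7 and 101 CPM at 4 weeks and 264 and 171 CPM at 6 weeks. The ages did not overlap, as for 51.3% of all genes (log2 1.08, SE 0.40, adjusted p = 0.138, edgeR), and DESeq2 gave an adjusted p of 0.0303. Basal Cdkn1b+/+ libraries had 62.7, 85.5 and 80.9 CPM at 4 weeks and 152, 168 and 80.9 CPM at 6 weeks (log2 0.96, SE 0.37, adjusted p = 0.096). With the 2 libraries of 6 weeks that stood apart left out, edgeR called E2f4 in basal (adjusted p = 0.0359) and luminal cells (adjusted p = 0.032). Depth was lower at 6 weeks. In basal Cdkn1b+/+ libraries, basal markers summed to 14520 to 15290 CPM at 4 weeks and 5511 to 8390 CPM at 6 weeks. Fibroblast markers there summed to 1200 to 6377 and 67.1 to 567 CPM. The E2f3 values of basal cells above come from the same libraries. Any difference in sequencing between the ages cannot be told apart from age. The part of depth and of these markers was not tested.

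Among genotype comparisons, the smallest unadjusted p of a member was that of E2f4 in luminal cells of 6 weeks. Cdkn1b-/- libraries had 91.8 and 45.1 CPM against 264 and 171 CPM in Cdkn1b+/+. The groups did not overlap, as for 48.2% of all genes, and the log2 fold change of -1.63 (SE 0.49, unadjusted p = 0.00781) had an adjusted p of 0.182 by edgeR and 0.0216 by DESeq2. At 4 weeks the same populations had 67.0, 117 and 89.4 CPM (Cdkn1b-/-) against 121, 81.7 and 101 CPM, with overlap. The difference between the effects at these ages was -1.68 (log2, SE 0.58, adjusted p = 0.165 by edgeR and 0.0403 by DESeq2). The value of 45.1 belongs to the library with high immune, endothelial and fibroblast markers, without which the luminal difference at 6 weeks was -1.40 (adjusted p = 0.482). Leaving out library 1 instead, so that this library alone stood for Cdkn1b-/- and was assumed to vary like the other groups, gave calls for E2f4 (adjusted p = 0.0436) and E2f1 in the difference between ages. In Cdkn1b-/- library 1 of 6 weeks these marker sums were also above those of the luminal Cdkn1b+/+ libraries. They were 1138 against 165.5 to 321 CPM (immune), 157 against 0.303 to 5.86 CPM (endothelial) and 117 against 16.6 to 33.5 CPM (fibroblast). Leaving out library 2 thus did not remove the difference in markers between genotypes. Whether these markers come from other cells, and their part in the result, was not tested.

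**Figure D4:**
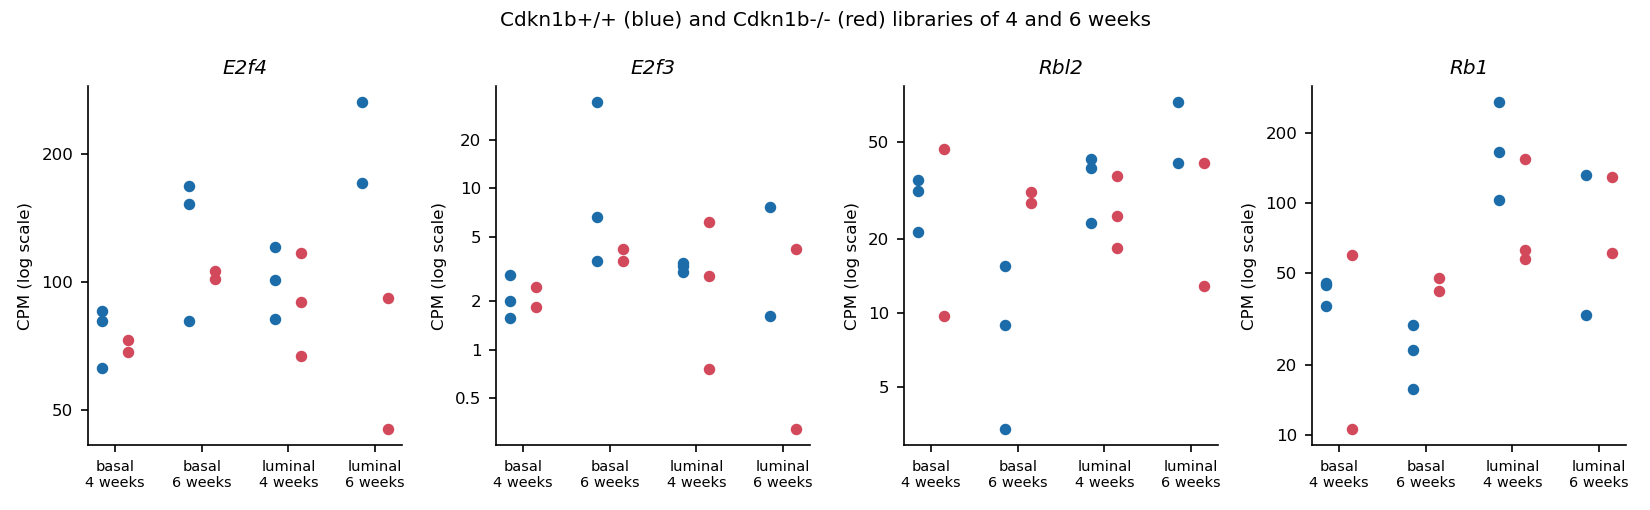
CPM of E2f4, E2f3, Rbl2 and Rb1 in basal and luminal libraries of 4 and 6 weeks (log axis), Cdkn1b+/+ in blue and Cdkn1b-/- in red, 1 point per library. E2f4 in luminal cells is highest in the 2 Cdkn1b+/+ libraries of 6 weeks, and Rbl2 in basal Cdkn1b+/+ libraries lies at 21.3 to 35.0 CPM at 4 weeks and 3.38 to 15.5 CPM at 6 weeks.

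E2f7 had 0.201 to 1.79 CPM at 9 weeks, 0.0991 to 3.45 CPM at 4 weeks and 0 to 9.30 CPM at 6 weeks, and it was listed at 0 in 5 of 12 libraries of the E2 experiment. Its groups overlapped between genotypes at each age, and none of its comparisons had an unadjusted p under 0.05.

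Rb1 was higher in luminal than in basal cells. At 4 weeks, luminal Cdkn1b+/+ libraries had 103, 272 and 166 CPM and basal libraries of the same 3 animals 36.0, 44.4 and 45.2 CPM. The groups did not overlap, as for 43.9% of all genes, and the log2 fold change of basal against luminal was -2.04 (SE 0.50, adjusted p = 0.00937, edgeR). Rb1 was the 1 of 7 members called there, where 23.5% of genes were called, and it was called under all 10 alternatives run, with adjusted p from 0.000207 to 0.0459. Among these, the animal as a block gave a log2 fold change of -1.97 (adjusted p = 0.000207).

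At other ages the direction was the same and fewer tests passed. In Cdkn1b+/+ rats of 9 weeks Rb1 was -1.86 on the log2 scale in basal against LP (SE 0.80, adjusted p = 0.092, edgeR) and -1.62 in basal against mature luminal cells (SE 0.86, adjusted p = 0.208), with every luminal library above both basal ones (no overlap in 50.6% and 55.6% of all genes). With the number as a replicate block within genotype these were -1.64 (SE 0.34, adjusted p = 0.00176) and -1.50 (SE 0.37, adjusted p = 0.00657), and edgeR called both. Among members, 0 were called in basal against mature luminal cells without the block (20.9% of genes), with 0 at an unadjusted p under 0.05 (33.7% of genes) and 0 by DESeq2. At 6 weeks, basal Cdkn1b+/+ libraries had 23.1, 29.6 and 15.8 CPM and luminal libraries 33.0 and 131 CPM (log2 -1.81, SE 0.64, adjusted p = 0.195), which fell to -0.38 without luminal library 2. The edgeR test called 0 members in that comparison (2.43% of genes), with 2 at an unadjusted p under 0.05 (17.3% of genes), and DESeq2 called 1. In the E2 experiment Rb1 was -1.42 in basal against luminal cells (SE 0.59, adjusted p = 0.264), where 0 members were called (1.66% of genes), with 1 at an unadjusted p under 0.05 (16% of genes) and 0 by DESeq2.

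Basal and luminal libraries of 1 animal, or of 1 pair of BN animals, could be set side by side 15 times at 4 weeks, 6 weeks and in the E2 experiment. Rb1 was higher in the luminal library in 14 of 15, by 1.27- to 7.45-fold, and lower only in an ACI E2 rat (22.3 against 57.3 CPM). Of 11512 genes tested in all 3 experiments, 15% ran the same way in at least 14 of the 15, and Rb1 was the 1 member among them. The other members were higher in luminal cells in 3 (E2f7), 7 (Rbl1), 8 (E2f4), 9 (Rbl2) and 10 (E2f1 and E2f3) of 15. Genes listed as markers of other cell types differed between the gates at 4 weeks. Of 9 immune markers 3 (Cd14, Lyz2 and Csf1r) were lower in basal Cdkn1b+/+ cells, with sums of 93.1 to 172 CPM in basal and 790.5 to 982 CPM in luminal libraries, and 5 of 6 fibroblast and 2 of 4 Schwann cell markers were higher there. The immune marker Ptprc had means of 0.468 CPM in basal and 2.14 CPM in luminal Cdkn1b+/+ libraries. Whether these markers come from other cells or from the epithelium was not tested, nor was their part in the Rb1 difference.

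**Figure D5:**
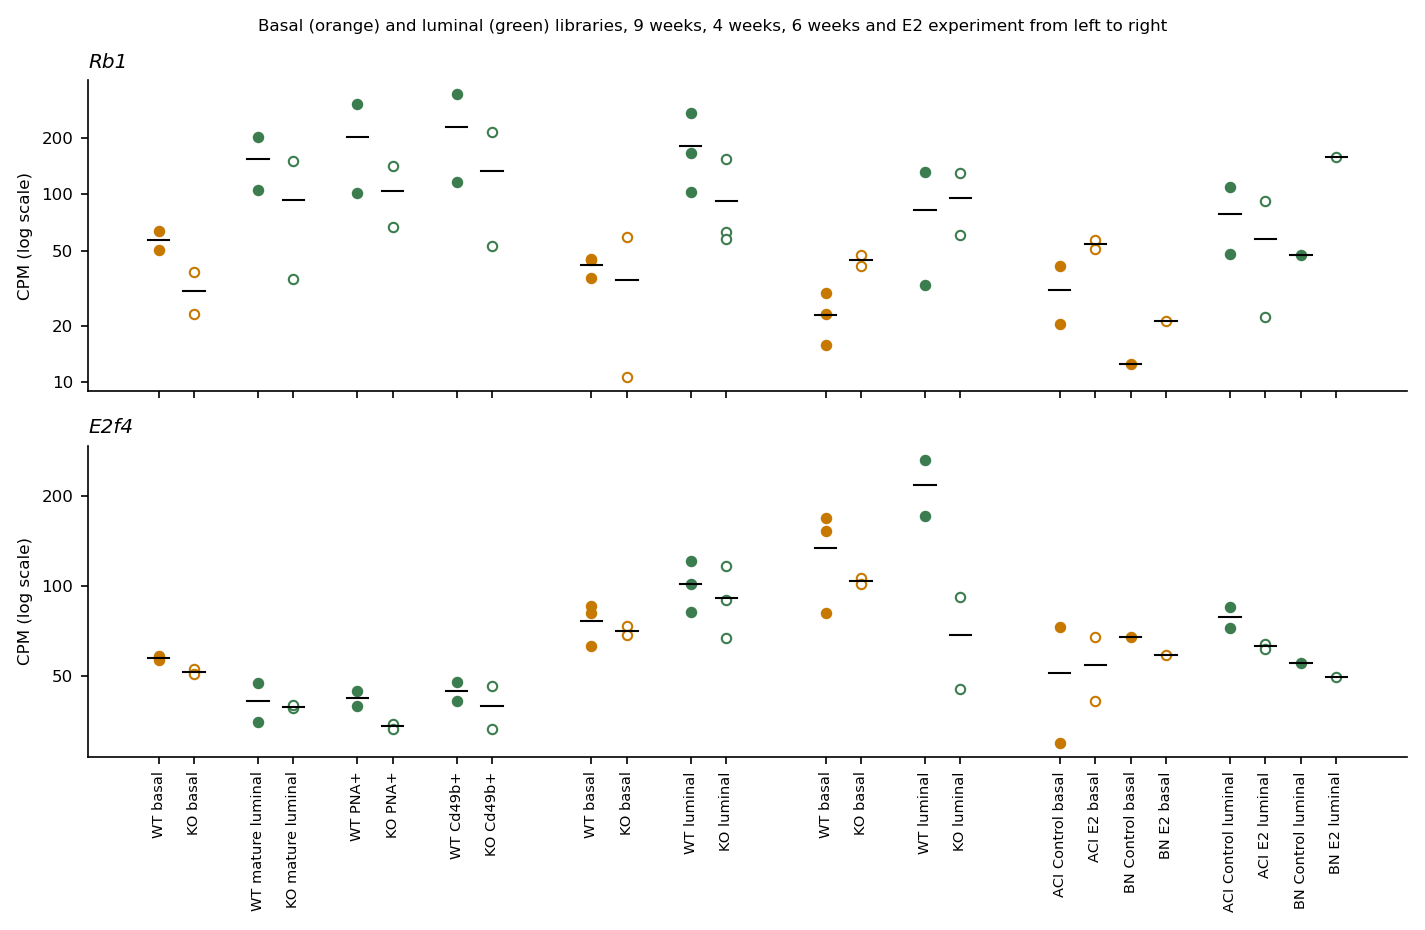
CPM of Rb1 and E2f4 in all 48 libraries (log axis) by experiment and population, with basal in orange, luminal in green, open symbols for Cdkn1b-/- or E2 and a black bar at each group mean. For Rb1 the luminal library is above the basal library of the same animal in 14 of 15 cases, and E2f4 reaches its highest value, 264 CPM, at 6 weeks.

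Between genotypes, Rb1 means were lower in Cdkn1b-/- cells of each population of 9 weeks with wide spreads. LP had 119 ± 74.4 CPM (SD, n = 4) against 215 ± 123 CPM (SD, n = 4), with overlap. Basal Cdkn1b-/- libraries (38.3 and 22.9 CPM) lay below basal Cdkn1b+/+ libraries (50.2 and 64.0 CPM) without overlap, as for 41.7% of all genes, and this difference did not pass the test. At 4 weeks luminal libraries had 62.5, 57.5 and 155 CPM against 103, 272 and 166 CPM in Cdkn1b+/+, with overlap. At 6 weeks the basal libraries ran the other way, with 41.6 and 47.6 CPM in Cdkn1b-/- above 23.1, 29.6 and 15.8 CPM in Cdkn1b+/+, without overlap, as for 41.7% of all genes. None of these had an unadjusted p under 0.05. Basal and fibroblast marker sums of the basal libraries of 6 weeks also differed between genotypes, as given for Rbl2 below, and their part was not tested.

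Rbl2 (p130), the pocket protein of resting cells, was lower in basal Cdkn1b-/- libraries of 9 weeks, at 14.2 and 20.97 CPM, than in basal Cdkn1b+/+ libraries at 25.5 and 38.4 CPM. The groups did not overlap, as for 41.7% of all genes, but the log2 fold change of -0.63 (SE 0.28, unadjusted p = 0.0393) had an adjusted p of 0.525 by edgeR, and it ranged from -0.94 to -0.23 when a library was left out. In LP of Cdkn1b+/+ rats, Rbl2 had 35.5 and 41.4 (Cd49b+) and 31.3 and 44.5 CPM (PNA+) against 21.4 and 23.6 CPM in mature luminal cells, without overlap, as for 43.7% of all genes. The log2 fold change was 0.53 (SE 0.24, adjusted p = 0.168) and with the replicate block within genotype 0.52 (SE 0.13, adjusted p = 0.0125), which edgeR called. Without the block 0 members were called there (11% of genes), with 1 at an unadjusted p under 0.05 (28.7% of genes) and 0 by DESeq2. In Cdkn1b-/- rats the same comparison gave 0 members (0% of genes) with 0 at an unadjusted p under 0.05 (17.6% of genes) and 0 by DESeq2. PNA+ against Cd49b+ cells also gave 0 members (0% of 11725 genes), with 0 at an unadjusted p under 0.05 (3.57% of genes) and 0 by DESeq2.

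With age, Rbl2 in basal Cdkn1b+/+ cells went from 21.3, 31.5 and 35.0 CPM at 4 weeks to 15.5, 8.91 and 3.38 CPM at 6 weeks. The ages did not overlap, as for 37.2% of all genes (log2 -1.53, SE 0.56), with an adjusted p of 0.0846 by edgeR and 0.00943 by DESeq2. In this comparison edgeR called 0 members (10.5% of genes), with 3 at an unadjusted p under 0.05 (28% of genes), and DESeq2 called 2 members and 2602 of 12572 genes. At 6 weeks these basal values also lay below the luminal 72.3 and 40.9 CPM, without overlap, as for 40.1% of all genes (log2 -2.55, SE 0.78, adjusted p = 0.136 by edgeR, 0.00563 by DESeq2 and 0.0195 by edgeR without the 2 libraries that stood apart). For luminal cells of 6 against 4 weeks edgeR called 0 members (3.10% of genes), with 1 at an unadjusted p under 0.05 (20.7% of genes), and DESeq2 called 1. Basal Cdkn1b-/- libraries of 6 weeks had 28.0 and 31.2 CPM, above the 3 Cdkn1b+/+ values (no overlap in 41.7% of all genes), and that difference did not pass the test (unadjusted p = 0.0697, edgeR). Basal and fibroblast marker sums of the basal Cdkn1b+/+ libraries were lower at 6 than at 4 weeks, as given above. At 6 weeks they were 5511 to 8390 and 67.1 to 567 CPM, against 11750 to 14760 and 2331 to 3288 CPM in basal Cdkn1b-/- libraries. Their part in these differences of Rbl2 was not tested.

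Rbl1 (p107), itself an E2F target, had 1.39 to 5.91 CPM at 9 weeks, 0.694 to 8.43 CPM at 4 weeks and 0 to 9.04 CPM at 6 weeks. Its highest value, 22.1 CPM, was in the basal ACI E2 library 1, which stood apart. Mature luminal Cdkn1b-/- libraries had 1.53 and 1.39 CPM against 3.57 and 1.78 CPM, without overlap, as for 29.3% of all genes, and without a call.

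Estradiol and strain gave 0 member calls. E2 against control gave 0 in luminal (0% of 12670 genes) and 0 in basal cells (0% of 12265 genes), and ACI against BN gave 0 in luminal (0% of genes) and 0 in basal cells (0% of genes), each with 0 at an unadjusted p under 0.05 by edgeR and 0 by DESeq2. Of all genes, 3.45%, 1.45%, 4.03% and 0.742% had such an unadjusted p, in the same order. E2f1 in luminal cells had 2.01 and 0.325 CPM in ACI controls, 0 and 12.4 in ACI E2, 8.01 in the BN control and 6.01 CPM in BN E2. Rbl2 in basal cells had 28.2 and 40.3 CPM in ACI controls, 5.25 and 23.4 in ACI E2, 43.8 in the BN control and 68.0 CPM in BN E2, so both BN values lay above the 4 ACI values (no overlap in 8.52% of all genes) without passing the test. With 1 BN library per group and strain and treatment as additive terms, whether E2 acted differently in the strains was not tested. The biological coefficient of variation, edgeR's measure of spread between libraries of a group, was 1.2 and 1.33 in these fits against 0.361 at 9 weeks, which limits what these libraries can show.

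The partners, kinases, inhibitors and targets of the family were described from lists, whose counts and medians are descriptions beside those of all genes. In LP of 9 weeks, Cdkn1b was lower in Cdkn1b-/- cells (log2 -1.95, SE 0.26, adjusted p = 0.00208, edgeR, passed under 14 of 17 alternatives with adjusted p up to 0.512) and Plk1, a mitotic kinase and DREAM target, was higher (1.87, SE 0.43, adjusted p = 0.032, passed under 8 of 17 alternatives). These were 1 of 6 CDK inhibitors and 1 of 13 DREAM genes. All 13 DREAM estimates were above 0 with a median of 1.42, and 20 of 25 G1 to S estimates were above 0 with a median of 0.318, against 0.0316 over all genes. Of DP and MuvB genes (6), kinases and cyclins (9) and G1 to S genes (25), edgeR called 0, with 1, 4 and 6 at an unadjusted p under 0.05, and DESeq2 called 1, 2 and 3. Of the DREAM genes 10 of 13 had an unadjusted p under 0.05 and DESeq2 called 5, and 18.3% of all genes had such a p. These LP tests take PNA+ and Cd49b+ libraries of 1 number as separate samples, although such libraries deviated together (correlations 0.629 and 0.803). With them summed far fewer genes were called, as given at the end. The DREAM genes also split by number, 12 of 13 being higher in number 1 of all 4 Cdkn1b+/+ populations. In mature luminal and in basal cells edgeR called 0 genes of the 5 lists and DESeq2 1, Cdkn1b, in each, while 6 of 13 DREAM genes in mature luminal and 0 in basal cells had an unadjusted p under 0.05, against 7.15% and 9.09% of all genes. The medians of the G1 to S genes there were 0.0836 and -0.763, with 13 and 2 of 25 estimates above 0. At 6 weeks in luminal cells 24 of 25 G1 to S estimates were above 0 with a median of 2.1, against -0.00973 over all genes. Of the 25, edgeR called 0, with 6 at an unadjusted p under 0.05 (16.4% of all genes), and DESeq2 called 5. Library 2 of Cdkn1b-/- in that comparison is the one that stood apart. Both Cdkn1b-/- libraries there had higher immune, endothelial and fibroblast marker sums than the Cdkn1b+/+ libraries.

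Between populations of Cdkn1b+/+ rats at 9 weeks, more list genes were called, and in the comparisons with basal cells all but Gins2 were higher there. Of all genes, 30.9% were called in basal against LP and 20.9% in basal against mature luminal cells. Basal cells exceeded LP in 5 of 9 kinases and cyclins, among them Ccna2 (log2 2.27, SE 0.69, adjusted p = 0.0232) and Ccnd2 (2.15, SE 0.63, adjusted p = 0.0206), in 6 of 13 DREAM genes, among them Cdk1 (2.28), Birc5 (1.87) and Plk1 (1.84), in the inhibitors Cdkn2a (2.95) and Cdkn1c (1.56), in Rbbp4 (0.72) and the DP partner Tfdp2 (0.57), and in Tk1 (2.403) and Cdt1 (1.34) of the G1 to S genes, while Gins2 was lower (-1.29). Against mature luminal cells they exceeded in Ccnd2 (4.77), Ccna2 (3.38) and Cdk2 (1.16), in 6 of 13 DREAM genes (Aurkb 3.20, Birc5 2.90, Cdk1 2.69), in Tk1 (3.25), Mcm4 (1.18), Cdkn1c (2.22) and Tfdp2 (0.87). Without basal library 1, the library with E2f1 at 31.8 CPM, the DREAM calls went from 6 to 0 in both comparisons, and the kinases and cyclins went from 5 to 2 and from 3 to 2. LP exceeded mature luminal cells in Ccnd2 (2.61, SE 0.77, adjusted p = 0.046), a call lost when any of the 6 libraries was left out (adjusted p from 0.0535 to 0.184).

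At 4 weeks, basal Cdkn1b+/+ cells exceeded luminal cells in Ccnd2 (log2 7.34, SE 0.44, adjusted p = 1.08e-06, edgeR), Ccna2 (1.33), Ccnd3 (1.03) and Ccne1 (0.88), and in Cdkn1c, the inhibitor p57 (3.81, SE 0.42), and Rrm2 (1.19), while Gins2 was lower (-1.52), where 23.5% of all genes were called. Ccnd2 and Cdkn1c were called with any library left out, whereas Ccna2, Ccnd3, Ccne1 and Rrm2 each lost the call in 5 of 6 cases and Gins2 in 2. DREAM genes and DP and MuvB genes gave 0 calls by edgeR, with 0 and 1 at an unadjusted p under 0.05 (33.6% of all genes), and DESeq2 called 0 and 1. From 4 to 6 weeks, luminal Cdkn1b+/+ cells fell in the replication genes Mcm4 (-3.64, SE 0.81, adjusted p = 0.0235), Pola1 (-3.21) and Mcm6 (-2.78), although Pola1 and Mcm6 lost the call with any of the 5 libraries left out. There 24 of 25 G1 to S estimates were below 0 with a median of -2.51, against -0.131 over all genes. Basal cells fell in Rrm2 (-2.78), Mcm4 (-2.04), Aurkb (-2.58), Ccne1 (-1.37) and Cdkn1c (-1.63) and rose in Lin37 of the MuvB core (2.4, SE 0.54, adjusted p = 0.0105). In that basal comparison RLE scaling moved the median of all genes from 0 to -0.165, and the changes named kept their directions. Of these, Rrm2, Mcm4 and Ccne1 lost the call in 5 and Aurkb in 4 of 6 cases with a library left out. Basal and fibroblast marker sums were also lower at 6 weeks in these cells, and their part was not tested. Lin37 was also the list gene whose genotype effect differed between 6 and 4 weeks in luminal cells (-3.50, SE 0.84, adjusted p = 0.0487, passed under 5 of 13 alternatives with adjusted p up to 0.175), the difference in which E2f4 had its unadjusted p of 0.00967. In the E2 experiment Cdkn1c was the list gene called between populations, higher in basal cells (2.58, SE 0.39, adjusted p = 0.0122).

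The members' levels across the 16 libraries of 9 weeks were related as descriptions, since libraries share genotype, gate and number. Spearman's rho was 0.66 for E2f1 with Rbl1, -0.85 for E2f3 with Rbl2, -0.73 for E2f4 with Rbl2 and -0.67 for E2f4 with Rb1. With Mki67, the proliferation marker, rho was 0.64 for E2f1, 0.62 for Rbl1 and -0.67 for Rb1. The genes most like E2f1 over these libraries were Psma4 (0.95), Fh (0.95) and Gins1 (0.94), those like Rb1 included Hspa4l (0.96) and Insr (0.95), and those most like E2f4 were Med27 (0.96), Sf3b4 (0.95) and Dazap1 (0.94). Rbl1 was most like G3bp1 (0.92), Sdad1 (0.91) and Ssrp1 (0.88), Rbl2 like Ankrd42 (0.92), Sdccag3 (0.90) and Dennd6a (0.90), and E2f3 like Stx8 (0.92), Alyref (0.87) and Eif4a1 (0.87). E2f7, the lowest member, had no gene above Sec61a2 (0.71), followed by Sdsl (0.69) and Knstrn (0.67).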

How the data were processed

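Sorted mammary cells were profiled with a SMARTer low-input kit, which does not mark strand, and read as single ends. The authors aligned reads with STAR 2.5.1b and counted them per gene of the rn6 refGene annotation with HTSeq, and the deposited files hold raw read counts, 1 table per library (48 tables). Rows of unassigned reads held 47.2 to 77.0% of reads and were left out of library sizes and tests, with their share per library kept as a check. A pair of peak files was not used. Replicate libraries were checked for duplicates by a chi-square test (28 pairs, lowest value per gene 45.15) and none was found.

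Counts were tested in R 4.3.3 with edgeR 4.0.16 (filterByExpr, TMM, quasi-likelihood test of each contrast), with limma 3.58.1 loaded, over all genes of a fit, with p-values adjusted by Benjamini-Hochberg and called under 0.05. DESeq2 1.42.0, the tool of the study, was an alternative, as were RLE scaling, no filter, leaving out each library, replicate blocks and fits on the compared libraries alone. Groups came from the labels in 25 comparisons. LP joined PNA+ and Cd49b+ libraries. With the E2 experiment, strain and treatment entered as additive terms. The test code was checked on simulated data.

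Libraries of 9 weeks with the same genotype and number deviated together (correlation of deviations 0.26 to 0.80, 12 of 12 pairs above 0.1), as did basal and luminal libraries of 1 animal at 4 weeks (5 of 5 pairs, 0.11 to 0.62), so those numbers were taken as pairing across populations. The same number in the other genotype did not (0 of 16 pairs above 0.1), nor did animals at 6 weeks (0 of 4).

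Fold changes are given for members with an unadjusted p under 0.05, or where a blocked fit called them, and for list genes called, at most 4 per list and comparison by size. Correlations rest on log2 CPM (prior count 2), with the 3 genes most like each member named. Some genes that these rules would name are not reported here. Members and lists were chosen with earlier results of these data known. Promoter windows came from RefSeq (GRCr8) and carry no coordinates of rn6.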

Additional observations from a re-analysis of the deposited data

Results flagged for a closer look

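E2f4 in the Cd49b+ Cdkn1b-/- library 2 of 9 weeks had 46.2 CPM, while the other 3 LP libraries of that genotype had 33.1, 33.1 and 34.4 CPM. The gap to the nearest of these was large for a group of 4. The 4 LP libraries of a genotype hold 2 gates and 2 numbers and are not independent samples. In 14 tests, 1 per member and genotype, the E2f4 value of this library was the 1 flagged. Chance flags about 1 in 20 in each test, so 1 among 14 is not unusual. The same library had a basal marker sum of 2979 CPM against 334 to 543 CPM and an endothelial marker sum of 818 CPM against 89.3 to 201 CPM in the other 3, and their part in the E2f4 value was not tested.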

How the results depend on the processing

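Of 278 counts of called members under an alternative, 258 stayed as reported and 20 moved, and of 150 member fold changes 130 kept direction and side of the threshold, 14 newly passed it, 6 no longer passed it and 0 reversed. In basal against LP cells of Cdkn1b+/+ rats, the 1 call went to 0 with no filter, to 2 with DESeq2 and to between 0 and 1 when a library was left out. DESeq2 gave 1 in Cdkn1b-/- against Cdkn1b+/+ luminal cells of 6 weeks, 1 in basal against luminal cells of that age, 2 in basal and 1 in luminal cells of 6 against 4 weeks, and 1 for the change of the luminal genotype effect between these ages, where leaving out a library gave 0 to 2. Without both libraries of 6 weeks that stood apart, an alternative chosen after seeing the data, there was 1 call in basal against luminal cells of 6 weeks and 1 each in basal and luminal cells of 6 against 4 weeks. The cause was not tested.

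With the replicate block within genotype, 1 member was called in LP against mature luminal, 1 in basal against mature luminal and 2 in basal against LP cells, and an additive replicate block of the number gave 1 in the first. The blocks changed no other call of a member. Crossed numbers, chosen after seeing the data, gave 0 members and 1284, 132 and 77 genes in LP, mature luminal and basal cells between genotypes, against 436, 17 and 7 without a block and 671, 42 and 14 with the number. Over all genes, the block within genotype gave 4406 calls for LP against mature luminal (1406 without), 4882 for basal against mature luminal (2672), 6406 for basal against LP (3953), 228 for LP against mature luminal in Cdkn1b-/- (0) and 185 for PNA+ against Cd49b+ cells (0), and the animal block 153 at 6 weeks (290). DESeq2 called 1096, 158 and 170 genes between genotypes at 9 weeks, 321 and 1331 in basal and luminal cells of 6 weeks, 2542 for LP against mature luminal cells, 1512 between populations at 6 weeks and 1806 in the E2 experiment. Each of these counts is above that of edgeR. DESeq2 counts over all genes are not given for basal against LP, luminal cells of 6 against 4 weeks and the change of the luminal genotype effect. Its member calls there have no share of all genes beside them. With PNA+ and Cd49b+ libraries of 1 number summed, LP gave 5 genes between genotypes, and PNA+ or Cd49b+ alone 12 and 4. Without basal Cdkn1b+/+ library 1 of 9 weeks, Tk1 turned to -0.28 on the log2 scale against mature luminal and -1.13 against LP cells, and Bub1 to -0.033 against LP cells. Over all libraries left out in turn, Tk1 ranged from -0.28 to 4.19 and from -1.13 to 3.34, and Bub1 from -0.033 to 2.43. RLE scaling moved the median of all genes for the change of the basal genotype effect between 6 and 4 weeks from 0.0268 to 0.156. Depth limits E2f1, E2f3, E2f7 and Rbl1, which were at 0 in some libraries.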
